A study of Mus musculus with 18 samples.

Results

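The comparison described here asks how loss of Acly, the gene of ATP-citrate lyase, changes the transcriptional response of mouse natural killer (NK) cells to the step that engages the activating receptor NKG2D. It was taken from the table of gene counts as a difference of 2 differences: the change from primed to NKG2D-stimulated cells in knock-out, minus the same change in wild type. It used 12 of the 18 libraries of the series, 3 in each of 4 groups, and left out the 6 libraries of fresh cells. Wild-type cells came from mice of the genotype Rosa YFP/YFP Ncr1 CRE-ERT2 and knock-out cells from mice that carried Acly fl/fl together with the same Rosa YFP/YFP and Ncr1 CRE-ERT2 alleles. Both genotypes therefore carried the tamoxifen-inducible Cre driven from Ncr1 and the YFP reporter, and both received tamoxifen in the diet for 48 hours, with YFP+ NK cells sorted from the spleen 5 days after the diet ended. The cells are thus those in which Cre had acted, and deletion of the floxed exon was not measured here. Primed cells had been cultured with IL-15, an NK-cell growth and survival cytokine, at 100 ng/ml for 72 hours. Stimulated cells were primed in the same way, washed, and then placed on plate-bound NKG2D reagent at 20 ug/ml for 6 hours. The labels name no washed culture without the reagent, so engagement of the receptor, the wash and the added 6 hours cannot be told apart, and all are meant by the NKG2D step below. Nor do they tie the 3 replicates to individual animals, and the p-values accordingly reflect variation among these libraries.

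NKG2D, encoded by Klrk1, is a receptor for stress-induced ligands that signals in mouse NK cells through the adaptors DAP10 (Hcst) and DAP12 (Tyrobp). Its engagement leads to calcium and MAP kinase signals, induction of immediate-early transcription factors, release of cytotoxic granules and production of interferon-gamma and chemokines. ATP-citrate lyase splits citrate in the cytosol into acetyl-CoA and oxaloacetate, and so supplies acetyl groups for lipid synthesis and for protein acetylation, histones included.

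The 12 libraries held 14772300 to 34367538 reads. Primed knock-out replicate 1 was the smallest, with 14695 genes read at least once against at least 17877 in each of the others. It, primed wild-type replicate 3 and stimulated knock-out replicate 1 had the lowest sample weights in limma voom (0.22, 0.422 and 0.267, where the others had 0.688 or more). Each group held 1 library with a female pattern of Xist and Y-linked genes, wild-type replicate 1 and knock-out replicate 2, so the replicates of a group did not all come from 1 animal. Acly itself read 227, 280.1 and 263 CPM in the primed wild-type libraries, 194, 171 and 129 in the stimulated wild-type ones, 41.6, 38.2 and 49.1 in the primed knock-out ones and 39.1, 28.3 and 42.1 in the stimulated knock-out ones. CPM are reads scaled to a common library total, and each gene's 3 values are always given in the order of replicates 1 to 3. The knock-out libraries were below the wild-type ones in both conditions, and the response of Acly to the NKG2D step was not called different between genotypes (difference 0.41, SE 0.249, edgeR adjusted p = 0.472). Markers of NK cells summed to 20915 to 25440 CPM in primed wild type, 17936 to 22843 in primed knock-out, 12652 to 14488 in stimulated wild type and 9435 to 11194 in stimulated knock-out. Ms4a1, Lyz2, S100a8, S100a9 and Csf3r, markers of B cells, monocytes and neutrophils, were at 0 in all 12 libraries. Other members of their lists were read: 8 of 10 for B cells and 8 of 12 for monocytes, macrophages and neutrophils. The B-cell list summed to 85.6 to 111 CPM over the 6 primed libraries and to 438 to 629 CPM over the 6 stimulated ones, most of it Ighm. The T-cell list, mostly Cd28, Trbc1 and Trbc2, summed to 583 to 762 CPM when primed and 598 to 757 when stimulated. For ILC1-type cells the sums were 128 to 270 and 265 to 447 CPM. Those of red cells and platelets, nearly all Car2, were 1741 to 2418 and 3748 to 5078 CPM. On the marker lists of cells other than NK cells, Cd68 alone was called for the difference of responses. The RNA is from bulk cells, so fewer cells of a type and less RNA per cell cannot be told apart.

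Of 14121 genes tested with edgeR, 203 (1.44%) had a response that differed between genotypes at adjusted p 0.05. The response was lower in knock-out for 131 (0.928%) and higher for 72 (0.51%). The median difference over all tested genes was 0.05 on the log2 scale, and 136 of the 203 differed by at least 1. The step changed 2311 genes (16.4%) in wild type, 1035 up (7.33%) and 1276 down (9.04%), and 4433 (31.4%) in knock-out, 2255 up (16%) and 2178 down (15.4%). Knock-out had the larger response in size for 168 of the 203. The 203 were selected by the difference of these same responses, and the share over all tested genes is not given here. At the threshold, Elf1 lay just inside (adjusted p = 0.04998) and Grhpr just outside (adjusted p = 0.0509). The count rests on many libraries together. It became 57 to 95 when any 1 of 9 libraries was left out (primed wild-type replicates 1, 2 and 3, primed knock-out replicates 2 and 3, stimulated wild-type replicates 1 and 2, stimulated knock-out replicates 2 and 3), 161 or 194 without stimulated wild-type replicate 3 or primed knock-out replicate 1, and 252 without stimulated knock-out replicate 1. All 203 differences kept their sign in each of these 12 fits, and 43 genes were called in every one of them, 36 lower and 7 higher. In a fit with the replicate number within each genotype as a block, 0 of the 203 were called with edgeR, the 43 included. All 203 kept their sign there and had an edgeR unadjusted p under 0.05. They were selected by the same contrast in the same libraries, so neither result is independent support. The labels do not say that the numbers pair libraries. The female-pattern library, however, bore the same number in both conditions of each genotype and in the fresh cells as well. The account below turns on those 43 genes, which were singled out after their values were seen.

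**Figure D1:**
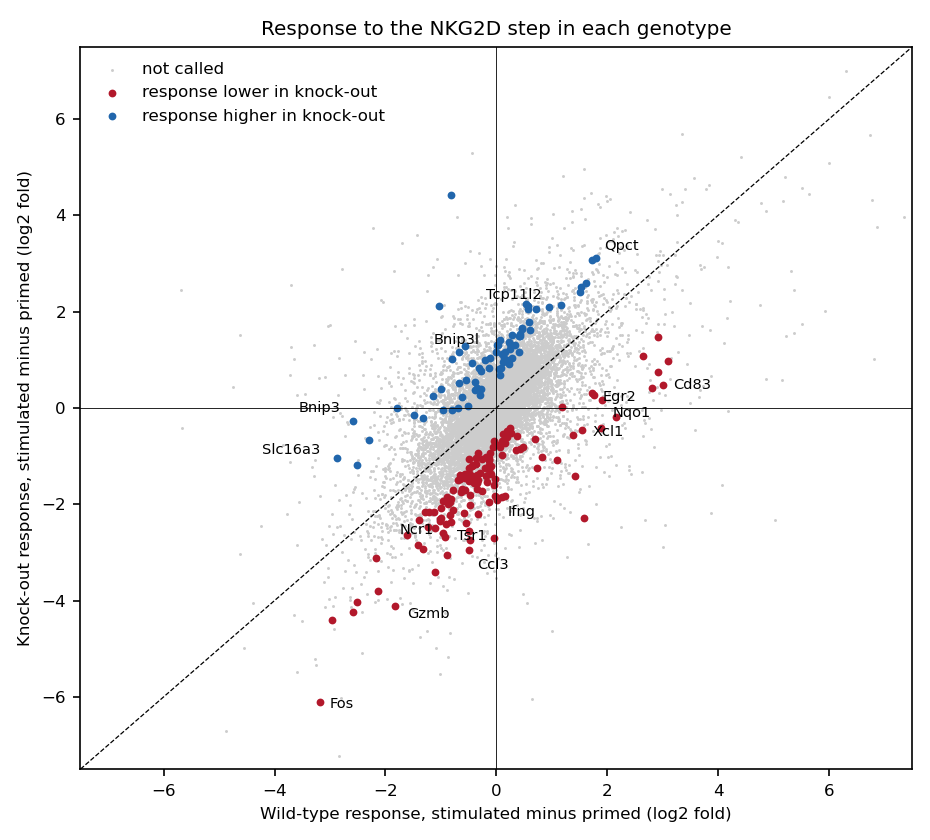
Each point is 1 of 14041 tested genes with reads in every group, placed by its log2 fold change at the NKG2D step in wild type (horizontal) and in knock-out (vertical); the dashed line marks equal responses, red points are called lower and blue points called higher in knock-out (199 genes drawn as called), and 1 gene that is not called lies outside the axes. Red points gather below the line where knock-out fell further than wild type, and at the right where Xcl1, Egr2 and Cd83 rose in wild type, while Bnip3 and Slc16a3 lie above the line at the left.

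Sorted by how each genotype moved, the 131 genes with a lower response in knock-out were mostly genes that fell there. In 56 of them both genotypes fell, with a median log2 change of -0.85 in wild type and -2.10 in knock-out. In another 56 the wild-type change was not called (median -0.09) and knock-out fell (median -1.25). A further 10 rose in wild type with no call in knock-out (medians 1.90 and 0.22), 6 rose in wild type and fell in knock-out, and 3 rose in both. Of the 72 genes with a higher response in knock-out, 40 rose in knock-out with no call in wild type (medians 1.20 and 0.11), 12 rose in both (medians 1.06 in wild type and 2.12 in knock-out), 12 fell in wild type with no call in knock-out, 6 fell in wild type and rose in knock-out, and 2, Slc16a3 and Pfkl, fell in both. These classes divide the same values that the calls came from and are a description.

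The 5 cytokine and chemokine genes called were all lower in knock-out: Ifng, Ccl3, Ccl4, Xcl1 and Spp1, of 22 members tested in a list of 32. The list's median difference was -1.24, where that over all genes was 0.05, and 18 of the 22 values were negative. In wild type 3 members rose and 3 fell at the step, and in knock-out 3 rose and 10 fell. Among all tested genes 7.33% rose and 9.04% fell in wild type, and 16% rose and 15.4% fell in knock-out. Ifng encodes interferon-gamma, the signature NK-cell cytokine, and read 87.3, 83.5 and 63.2 CPM in the primed wild-type libraries, 88.3, 66 and 81.6 in the stimulated wild-type ones, 73, 67.3 and 71.1 in the primed knock-out ones and 20.7, 20.2 and 15.6 in the stimulated knock-out ones. The 9 values outside stimulated knock-out overlapped, and the 3 stimulated knock-out libraries lay below all of them. The log2 response of 0.01 in wild type was not called, and in knock-out Ifng fell by 1.90, a difference of responses of -1.92 (SE 0.224, 95% interval -2.40 to -1.43, edgeR adjusted p = 0.00579).

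Ccl3 and Ccl4, neighbours on chromosome 11 (mm10, 83647844 to 83649355 and 83662584 to 83664683), encode inflammatory chemokines. Ccl3 read 366, 253 and 201 CPM in the primed wild-type libraries, 230.4, 163 and 189.6 in the stimulated wild-type ones, 269, 275 and 299 in the primed knock-out ones and 43.3, 36.3 and 29.2 in the stimulated knock-out ones, so that primed libraries of the genotypes overlapped and stimulated ones did not. Its response differed by -2.46 (SE 0.294, edgeR adjusted p = 0.00579). For Ccl4 the level went from 1716 ± 313 to 1218 ± 249 CPM in wild type and from 1586 ± 286 to 271 ± 59.6 CPM in knock-out (SD, n = 3), a difference of -2.06 (SE 0.294, edgeR adjusted p = 0.00758). Neither gene's wild-type change was called. Xcl1, the chemokine that attracts cross-presenting dendritic cells, rose in wild type with no call in knock-out. It read 1002, 1176 and 866 then 3589, 2540.0 and 2809 CPM in wild type and 798, 829 and 971 then 779, 644 and 465 CPM in knock-out. Each stimulated wild-type library lay above all the primed ones, whereas the stimulated knock-out libraries lay below every primed knock-out one without a call. The log2 response was 1.55 in wild type and -0.46 in knock-out, a difference of -2.01 (SE 0.272, edgeR adjusted p = 0.00758). The calls of Ifng, Ccl3, Ccl4 and Xcl1 held without any 1 library. That of Spp1, osteopontin, held in 3 of the 12 such fits, with differences of -1.13 to -0.92. For Csf2 (GM-CSF) the difference of -2.78 was not called (SE 0.731, edgeR adjusted p = 0.0834).

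**Figure D2:**
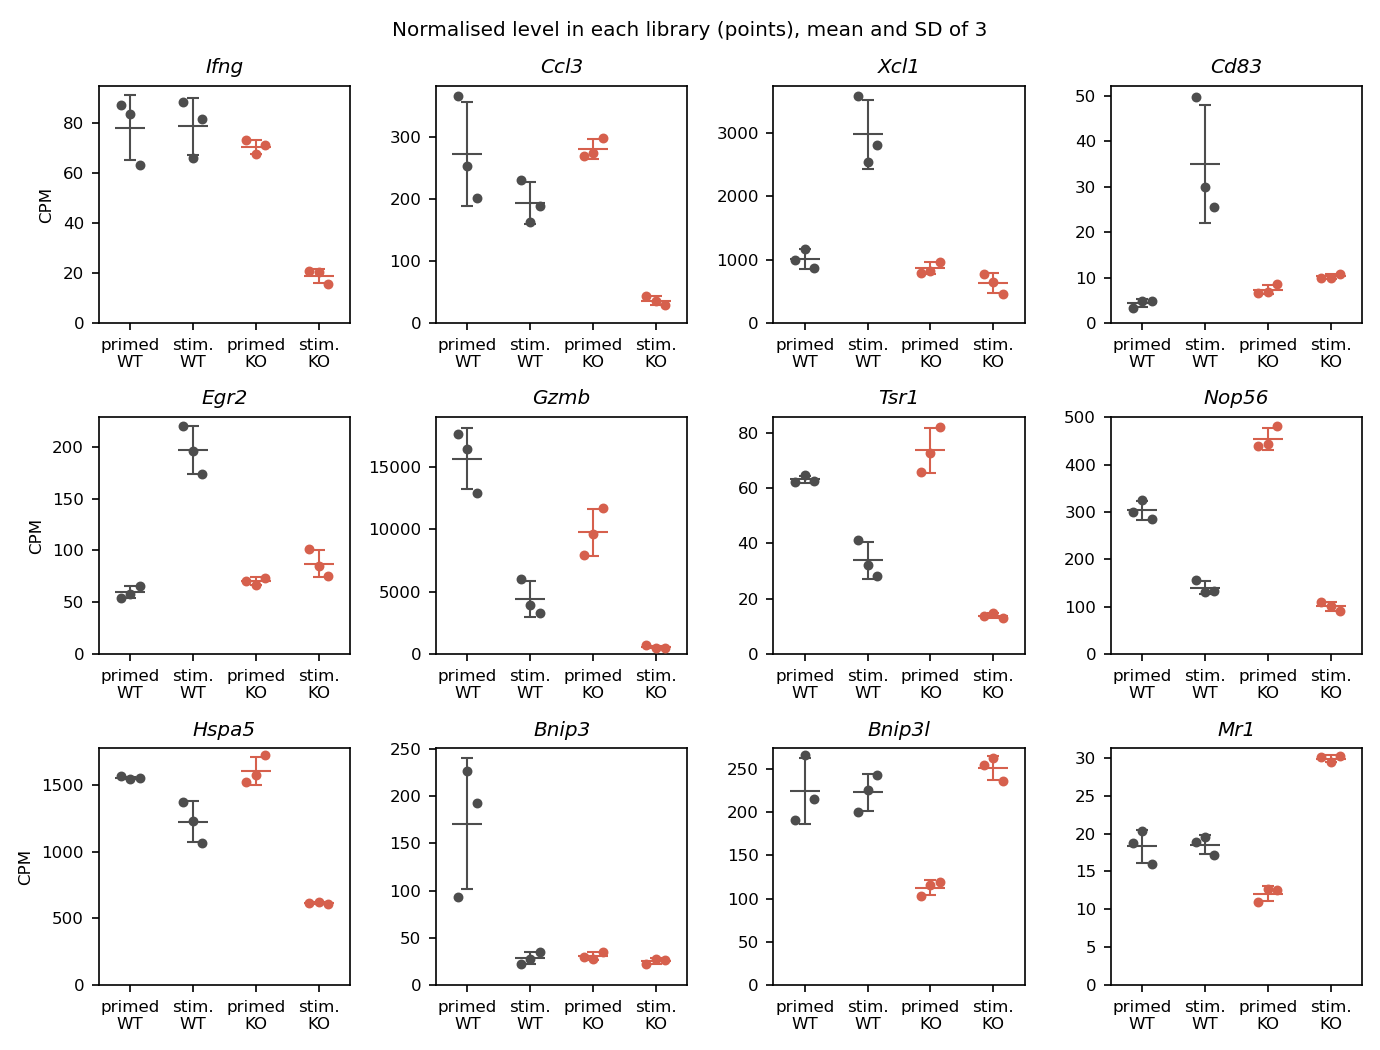
Each panel gives 1 gene: points are the CPM of the 3 libraries of a group, in the order of replicates 1 to 3, and bars the mean and SD; wild type is grey and knock-out red, and axes start at 0. For Ifng, Ccl3, Xcl1, Gzmb and Hspa5 the stimulated knock-out libraries are the lowest 3, for Bnip3 the primed wild-type ones stand above all others, and for Mr1 the stimulated knock-out ones do.

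Genes that rose in wild type with no call in knock-out included an activation-induced surface gene and an early transcription factor. Cd83, an immunoglobulin-family surface protein of activated lymphocytes and dendritic cells, read 3.31, 4.81 and 4.93 then 49.8, 29.8 and 25.4 CPM in wild type and 6.61, 6.89 and 8.50 then 9.93, 10.0 and 10.8 CPM in knock-out. It rose by 3.01 on the log2 scale in wild type. The stimulated knock-out libraries lay just above the primed knock-out ones, a value of 0.48 that was not called (difference -2.53, SE 0.349, edgeR adjusted p = 0.00758). Egr2, an early growth response factor induced downstream of calcium and MAP kinase signals, read 54.5, 58.4 and 65.9 then 220.5, 196 and 174 CPM in wild type and 70.8, 66.5 and 73.6 then 102, 84.5 and 75.6 CPM in knock-out. The stimulated knock-out libraries all lay above the primed ones but below every stimulated wild-type one, and the difference was -1.41 (SE 0.187, edgeR adjusted p = 0.00758). Nqo1, a quinone reductase, and Tnfrsf23, a decoy receptor of the TRAIL family, followed the same pattern from a primed knock-out level that was already high: Nqo1 read 2.79, 3.44 and 4 then 10.1, 12.5 and 16.2 CPM in wild type and 17.8, 18.7 and 21.6 then 22.2, 22.2 and 20.4 CPM in knock-out, and Tnfrsf23 read 0.71, 1.42 and 1.51 then 5.26, 6.69 and 4.46 CPM in wild type and 13.9, 10.4 and 15.3 then 13.4, 9.96 and 11.6 CPM in knock-out. For both genes the primed and stimulated knock-out levels were above every wild-type library, and the genotype gap narrowed from 2.50 to 0.74 for Nqo1 and from 3.42 to 1.09 for Tnfrsf23. The predicted gene Gm20743 (mm10 chromosome 1, 164863133 to 164936775, plus strand) spans Xcl1 (164931644 to 164935527, minus strand). The sources used here do not say whether strand was used in counting, so reads of the pair cannot be told apart. Gm20743 was the only one of the 43 genes that rose in wild type (1.39) and fell in knock-out (-0.57, adjusted p = 0.0499). Gm10053, another predicted gene of the 43, went from 412 ± 49.5 to 206 ± 11.3 CPM in wild type and from 457 ± 54.1 to 109 ± 11.2 CPM in knock-out.

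Among 36 early transcription factors, 4 were called lower and none higher (Fos, Egr1, Egr2 and Nr4a1), with a median difference of -0.34. In wild type 7 rose and 11 fell, and in knock-out 4 rose and 17 fell. For all tested genes, 7.33% rose and 9.04% fell in wild type, and 16% rose and 15.4% fell in knock-out. Fos, a subunit of the AP-1 factor, fell in both genotypes, from a primed level that was higher in knock-out: 16.4, 13.2 and 18 then 1.12, 2.39 and 1.83 CPM in wild type and 54.2, 77 and 118 then 1.52, 1.17 and 0.942 CPM in knock-out. Every stimulated library was lower than every primed one, and the stimulated genotypes overlapped, so the difference of -2.91 (SE 0.458, edgeR adjusted p = 0.0116) came with a primed gap of 2.39 and no call after the step. Egr1, which fell in both genotypes, and Nr4a1, an orphan nuclear receptor induced by antigen receptor signals, were called in 1 of the 12 fits without 1 library each, with differences of -1.84 to -1.23 and -1.60 to -1.18. The early transcription factor count became 2 or 3 in each of those fits. Myc fell in both genotypes, from 194 ± 25.1 to 22.8 ± 6.10 CPM in wild type and from 246 ± 21.1 to 14 ± 5.09 CPM in knock-out, and its difference was not called (-1.05, SE 0.337, edgeR adjusted p = 0.152).

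Of 31 granule and death ligand genes, 5 were called lower and none higher: Gzmb, Serpinb9, Gzmm, Ctsl and Mcpt8. The list's median difference was -0.33, with 4 members rising and 7 falling in wild type and 3 rising and 14 falling in knock-out. Shares over all tested genes were 7.33% rising and 9.04% falling in wild type, and 16% and 15.4% in knock-out. Gzmb encodes granzyme B, the main apoptosis-inducing protease of the granule, and had the highest level of the 43 genes. It read 17676, 16408 and 12919 CPM in the primed wild-type libraries, 6032, 3900.1 and 3315 in the stimulated wild-type ones, 7946, 9608 and 11709.8 in the primed knock-out ones and 685, 501 and 516 in the stimulated knock-out ones. Both genotypes fell, without overlap between any 2 groups, by 1.83 in wild type and 4.10 in knock-out on the log2 scale, a difference of -2.28 (SE 0.328, edgeR adjusted p = 0.00758). Each primed knock-out library already lay below every primed wild-type one, a gap that was not called. Gzmb has close paralogs beside it on chromosome 14, and the sources used here do not say how reads shared between them were counted. Serpinb9, the inhibitor that protects the killer cell from its own granzyme B, moved in the same direction, from 624 ± 97.4 to 328 ± 92.2 CPM in wild type and from 703 ± 131 to 110.0 ± 4.60 CPM in knock-out, with a difference of -1.75 (SE 0.271, edgeR adjusted p = 0.0108). Perforin (Prf1) fell in both genotypes, by 1.64 and 2.23, with no call for the difference (-0.59, SE 0.287, edgeR adjusted p = 0.353).

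Gzmm, Ctsl and Mcpt8 differed from Gzmb in that their primed level was higher in knock-out. Gzmm (granzyme M) read 1.85, 1.75 and 0.985 then 1.40, 0.956 and 1.17 CPM in wild type and 36.8, 30.8 and 38.8 then 10.1, 7.14 and 6.02 CPM in knock-out, so that every knock-out library stayed above every wild-type one. Mcpt8, a protease named for the mast cell protease gene family, read 2.98, 2.73 and 2.40 then 1.66, 1.34 and 1.36 CPM in wild type and 10.3, 14.5 and 12.9 then 1.56, 1.97 and 1.02 CPM in knock-out. Without 1 library the call of Gzmm held in 1 of 12 fits (differences -2.10 to -1.60), that of Ctsl, cathepsin L, in 2 (-2.60 to -1.96) and that of Mcpt8 in 9 (-2.39 to -1.98), lost without primed knock-out replicate 2 or 3 or stimulated wild-type replicate 1. The list's count of 5 became 2 or 3 without any 1 of 10 libraries, and stayed at 4 and 5 without primed wild-type replicate 2 and stimulated knock-out replicate 1.

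For the receptor through which the cells were stimulated, no difference of responses was called, although levels differed between genotypes. Of 30 members of the list of NKG2D and its proximal signalling, 0 were called with edgeR (3 had an unadjusted p under 0.05) or DESeq2, or with edgeR when 1 library was left out. limma voom with sample weights called 2 lower and 1 higher. Compared between genotypes by edgeR, 2 members were higher and 2 lower in knock-out when primed, and 2 higher and 3 lower after the step. Over all genes these gaps were called for 11.6% and 14.6%. Klrk1 read 883, 858 and 745 then 860.2, 884 and 968 CPM in wild type and 1253, 1382 and 1363 then 997, 1175 and 1109 CPM in knock-out, with a difference of -0.41, SE 0.153, edgeR adjusted p = 0.215, and for Hcst it was -0.15 (95% interval -0.71 to 0.41). Each knock-out library thus lay above every wild-type one of the same condition for Klrk1. Tyrobp lay the other way: 767, 753 and 572 then 730, 677 and 796 CPM in wild type and 286, 385 and 412 then 589, 360 and 378 CPM in knock-out. Of 25 tested members of the list of NK receptors 1 was lower and 1 higher, where 0.928% and 0.51% of all tested genes were. Ncr1 encodes the activating receptor NKp46 and is also the gene whose promoter drives the Cre in both genotypes. It read 415, 356 and 307 CPM in the primed wild-type libraries, 253, 174 and 175 in the stimulated wild-type ones, 507, 619.9 and 559 in the primed knock-out ones and 113, 134 and 115 in the stimulated knock-out ones. Knock-out libraries lay above wild-type ones when primed and below them after the step, a fall of 2.22 against 0.84 (difference -1.39, SE 0.227, edgeR adjusted p = 0.0143). Fcgr3, the antibody receptor CD16, took the opposite course. It read 136, 148 and 139 then 161, 173 and 199 CPM in wild type and 65.5, 78.9 and 72.5 then 196, 178 and 168 CPM in knock-out, lower in every primed knock-out library and overlapping after the step, with a difference of 0.99 (SE 0.158, edgeR adjusted p = 0.0124) that was lost without stimulated wild-type replicate 2 (adjusted p over its alternatives 1.63e-05 to 0.133).

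The largest group of called genes in any list was ribosome biogenesis, the assembly of ribosomal subunits in the nucleolus. Of 40 members 13 were called lower and none higher, and 39 of 40 values were negative with a median of -0.78. In wild type 28 members fell and 1 rose, and in knock-out 38 fell and 1 rose. The step lowered 9.04% of all tested genes in wild type and 15.4% in knock-out. Before the step 2 members were higher in knock-out and none lower, and after it 31 were lower and none higher (over all genes the primed gap was called for 11.6%, 5.3% higher and 6.29% lower in knock-out, and the stimulated one for 14.6%, 6.69% higher and 7.89% lower). The median response was -0.65 in wild type and -1.46 in knock-out. The count of 13 became 4 to 6 without any 1 of the same 9 libraries that lowered the total, 9 without primed knock-out replicate 1, and 12 or 16 without stimulated wild-type replicate 3 or stimulated knock-out replicate 1.

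Tsr1, a factor of small-subunit maturation (chromosome 11, 74898071 to 74909342, mm10), shows the pattern. It read 62.2, 64.7 and 62.7 CPM in the primed wild-type libraries, 41.2, 32.3 and 28.1 in the stimulated wild-type ones, 65.9, 72.8 and 82.3 in the primed knock-out ones and 13.8, 14.9 and 13 in the stimulated knock-out ones. Stimulated libraries lay below all primed ones, and knock-out went from just above wild type, without a call, to well below it. The fall was 0.90 in wild type and 2.40 in knock-out, a difference of -1.51 (SE 0.206, edgeR adjusted p = 0.00758). Ltv1, which helps export and mature the small subunit, read 31.4, 33.8 and 29.6 then 23.4, 21 and 23.6 CPM in wild type and 31.1, 35.8 and 36.9 then 8.54, 7.89 and 9.18 CPM in knock-out and differed by -1.54 (SE 0.183, edgeR adjusted p = 0.00579). Nop56, a core protein of box C/D ribonucleoproteins that guide ribosomal RNA methylation, started higher in knock-out and ended lower, from 304 ± 20.1 to 140.2 ± 14.2 CPM in wild type and from 454 ± 23.3 to 101 ± 9.26 CPM in knock-out (difference -1.05, SE 0.151, edgeR adjusted p = 0.00758). Rrp12, a ribosome export factor, differed by -1.55 (SE 0.271, edgeR adjusted p = 0.018), a call lost without primed wild-type replicate 1 or stimulated knock-out replicate 3. Of the nucleolar genes outside the list, Rrp15, a factor of pre-ribosome maturation, differed by -1.61 and Ccdc86, a nucleolar protein, by -1.35, both with edgeR adjusted p = 0.00758. Abce1, the ATPase that splits terminated ribosomes, fell by 0.77 in wild type and 1.70 in knock-out.

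Mettl1, N6amt1, Mrps28 and Mrps10 fell in knock-out with no call in wild type, and Timm8a1, Ndufaf4 and Eef1e1 fell in both genotypes. Mettl1, the methyltransferase that makes 7-methylguanosine in transfer RNA, read 24.4, 25 and 23.2 CPM in the primed wild-type libraries, 28.4, 27.7 and 24.9 in the stimulated wild-type ones, 30.3, 29.4 and 34.8 in the primed knock-out ones and 10.5, 7.37 and 8.89 in the stimulated knock-out ones. The stimulated knock-out libraries lay below all 9 others and the primed knock-out ones just above the wild-type ones, with a difference of -1.98 (SE 0.209, edgeR adjusted p = 0.00579). N6amt1, a methyltransferase of protein glutamine in a release factor, was above wild type in every primed knock-out library and below it in every stimulated one: 10.6, 12.1 and 13 then 13.7, 11.3 and 11.5 CPM in wild type and 30.1, 21.8 and 24.7 then 7.20, 7.23 and 6.35 CPM in knock-out (difference -1.91, SE 0.236, edgeR adjusted p = 0.00649). Mrps28 and Mrps10, proteins of the mitochondrial small ribosomal subunit, differed by -1.55 and -1.05. In Timm8a1, a chaperone of mitochondrial protein import, and Ndufaf4, an assembly factor of respiratory complex I, both genotypes fell, by 1.33 and 2.93 for the first and by 0.96 and 2.60 for the second. Eef1e1, a scaffold of the multi-synthetase complex, fell by 0.83 and 1.96. The aminoacyl-tRNA synthetases themselves had 0 calls with edgeR in 20 members, with a median of -0.28. DESeq2 called 3, limma voom called 7, and 6 had an unadjusted p under 0.05 in edgeR. Oxidative phosphorylation had 1 call of 35, where 1.44% of all tested genes were called. That call, of Cycs (cytochrome c), was lost without primed knock-out replicate 2 or 3 or stimulated wild-type replicate 1.

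Chaperone, nucleotide and RNA-binding genes were also among the 43. Hspa5, the endoplasmic reticulum chaperone BiP, read 1565, 1546 and 1550.1 CPM in the primed wild-type libraries, 1375, 1232 and 1068 in the stimulated wild-type ones, 1525, 1572 and 1722 in the primed knock-out ones and 617, 620.1 and 608 in the stimulated knock-out ones. Primed libraries of the genotypes overlapped, both genotypes fell, and the stimulated knock-out libraries were the lowest, with a difference of -1.04 (SE 0.152, edgeR adjusted p = 0.00798). Cct6a, a subunit of the cytosolic chaperonin, fell by 0.49 in wild type and 1.34 in knock-out. Atic, the bifunctional enzyme that completes purine synthesis, fell by 1.11 and 2.49 (difference -1.38, SE 0.207, edgeR adjusted p = 0.00869). Apex1, a base excision repair endonuclease, read 72, 87.9 and 80.1 then 76.3, 66.8 and 67.4 CPM in wild type and 79.2, 63.4 and 80.7 then 29.4, 27.6 and 26.4 CPM in knock-out, and the stimulated knock-out libraries were again the only ones apart (difference -1.23, SE 0.177, edgeR adjusted p = 0.00758). Syncrip, an RNA-binding protein, differed by -1.12. In the list of integrated stress, serine and ER stress genes 3 of 27 were lower and none higher (median -0.16): besides Hspa5, these were Asns, asparagine synthetase, and Shmt1, a folate-cycle serine enzyme, called in 1 and 3 of the 12 fits without 1 library. In the list of MYC network, nutrient transport and translation genes 3 of 34 were lower (Tfrc, Eif4e and Eif4a1) and none higher, with a median of -0.06. They were called in 1, 4 and 4 of those fits, and no member of that list was called without primed wild-type replicate 1 or 3, primed knock-out replicate 3, stimulated wild-type replicate 1 or stimulated knock-out replicate 2 or 3.

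**Figure D3:**
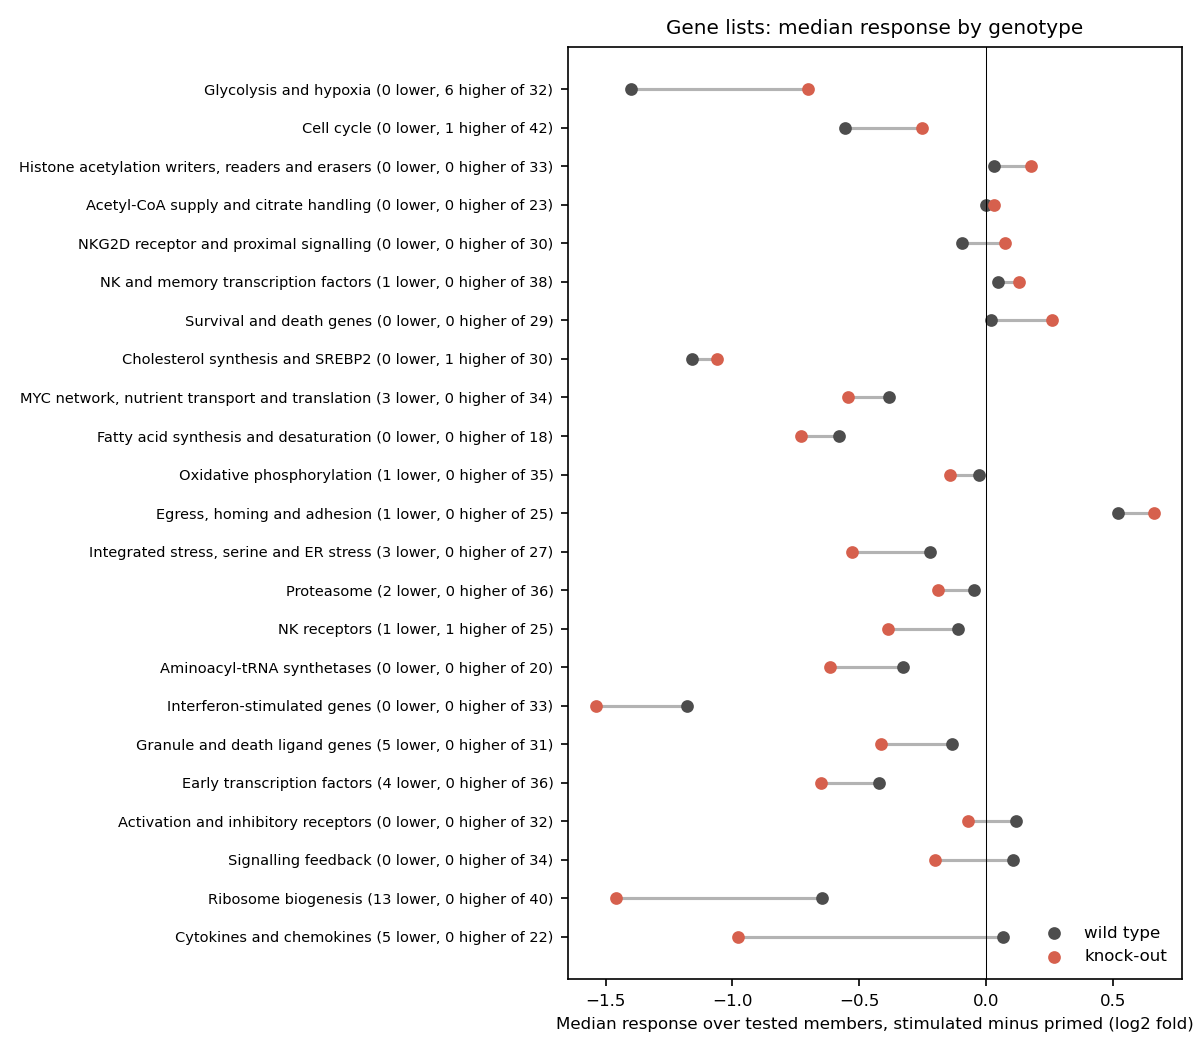
For each of 23 gene lists, the median log2 response at the NKG2D step over the tested members in wild type (grey) and knock-out (red), ordered by the median difference; labels give the members called lower and higher in knock-out of those tested. Cytokines and chemokines and ribosome biogenesis lie furthest toward a lower knock-out response, and glycolysis and hypoxia (medians -1.40 and -0.70) furthest toward a higher one.

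A set of the 43 genes was higher in knock-out before the step and lost all or part of that excess through it, with no change called in wild type. Ywhaq, a 14-3-3 protein, read 344, 327 and 339 CPM in the primed wild-type libraries, 294, 315 and 319 in the stimulated wild-type ones, 611, 675 and 660.0 in the primed knock-out ones and 296, 323 and 332 in the stimulated knock-out ones. The primed knock-out libraries were above all 9 others, and the stimulated genotypes overlapped (difference -0.91, SE 0.127, edgeR adjusted p = 0.00758). Khdc1b, of the KHDC1 family, read 10.4, 10.4 and 9.11 then 11.6, 11.8 and 8.73 CPM in wild type and 32.7, 50.3 and 54.9 then 12.8, 10.7 and 14.6 CPM in knock-out, and Ing3, a reader subunit of the NuA4 histone acetyltransferase complex, read 70.1, 77.5 and 71.7 then 66.2, 68.3 and 69.5 CPM in wild type and 185, 182 and 168 then 88, 96.2 and 94.3 CPM in knock-out. For Khdc1b the gap went from 2.21 to 0.24, and for Ing3 it remained called after the step at 0.45. Azin1, the antizyme inhibitor of polyamine synthesis, had a difference of -0.94 (SE 0.151, edgeR adjusted p = 0.0124) and lost more than its excess. With CPM scaled over all 18 libraries, primed knock-out was at 204 ± 13.9 against 123 ± 1.43 in primed wild type. After the step knock-out was at 97.3 ± 12.3 and wild type at 113 ± 5.79. Over all 203 genes the genotype gap was larger in size after the step for 122 and smaller for 81, again without the share over all tested genes. Of the 131 with a lower response, 92 had no call when primed and were lower after the step, 24 were higher when primed with no call after, and 8 crossed from higher to lower.

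**Figure D4:**
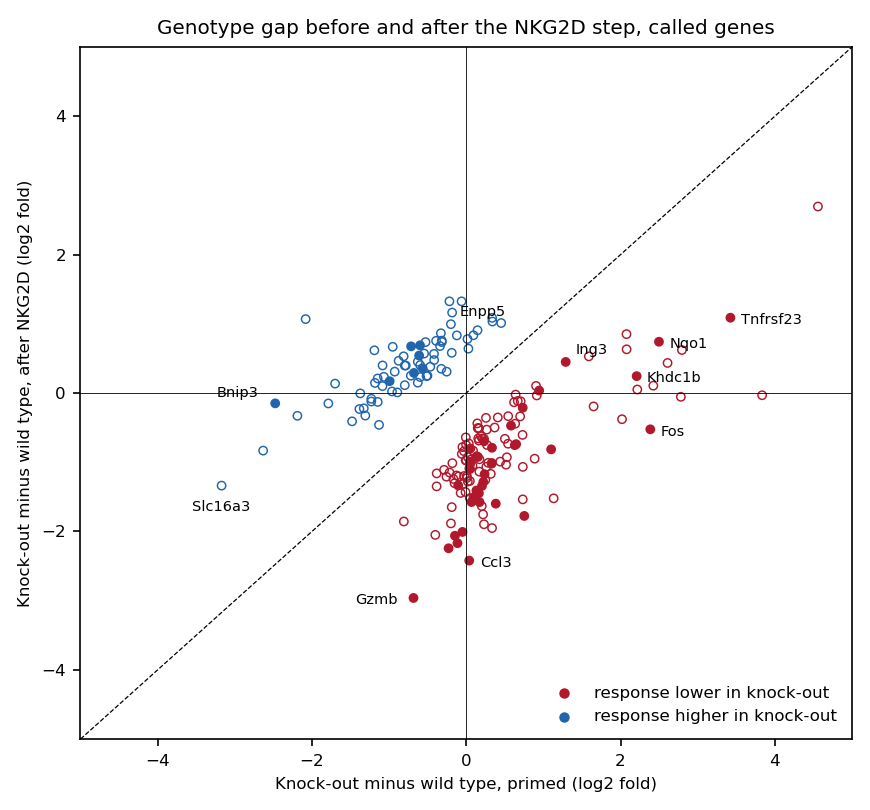
Each circle is a called gene, placed by the log2 difference between knock-out and wild type in primed cells (horizontal) and after the NKG2D step (vertical); filled circles are the 43 genes called without any 1 library, red is a lower and blue a higher response in knock-out, and the dashed line marks an equal gap. Of 199 called genes with reads in every group, 1 lies outside the axes. Ccl3 sits low with a small primed gap and Gzmb sits low from a primed level already lower in knock-out, whereas Bnip3, Fos and Khdc1b sit near 0 after the step.

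In the other direction, glycolysis and hypoxia genes had the highest median difference of the 23 lists, 0.80, with 6 of 32 members called higher and none lower (Pfkl, Aldoc, Slc16a3, Bnip3, Egln1 and Pdk1) and 3 of 32 values negative. Nearly all members fell at the step in wild type (25 fell, 1 rose), and 16 fell and 2 rose in knock-out. The shares of all tested genes that fell were 9.04% in wild type and 15.4% in knock-out. When primed, 27 members were lower in knock-out and none higher, and 12 were lower after the step. Of all tested genes 6.29% were lower in knock-out when primed and 7.89% after the step. Bnip3, a hypoxia-induced mitochondrial receptor of mitophagy, read 93.5, 226 and 193 CPM in the primed wild-type libraries, 22.4, 28.1 and 34.9 in the stimulated wild-type ones, 29.6, 27.3 and 35.3 in the primed knock-out ones and 22.4, 27.8 and 26.7 in the stimulated knock-out ones. Only the primed wild-type libraries were high, and they varied among themselves more than those of the other 3 groups. Wild type fell by 2.59 and the knock-out change of -0.26 was not called, a difference of 2.33 (SE 0.38, edgeR adjusted p = 0.0143), which held without any 1 library. Slc16a3, the lactate exporter MCT4, read 96, 135 and 151 then 15.1, 20.4 and 16.7 CPM in wild type and 11.5, 13.5 and 17.2 then 9.43, 5.03 and 6.14 CPM in knock-out, with all knock-out libraries below all wild-type ones of the same condition. It fell in both genotypes, by 2.87 and 1.04 (difference 1.83, SE 0.342, edgeR adjusted p = 0.025). The calls of Slc16a3 and Egln1 (a prolyl hydroxylase of HIF) held in 5 of the 12 fits without 1 library, that of Aldoc (aldolase C) in 4, that of Pdk1 (pyruvate dehydrogenase kinase) in 2 and that of Pfkl (phosphofructokinase) in 1. The list's count was 5 without primed wild-type replicate 1, primed knock-out replicate 1 or stimulated knock-out replicate 1, 3 without stimulated wild-type replicate 3, and 1 or 2 without any of the other 8.

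Promoter sequences are shown for 3 of the 43 genes that illustrate the falling and the opposite pattern: the 250 bases before the RefSeq start (GRCm38.p6, the assembly of mm10), 5′ to 3′ on the gene's strand. Capitals mark the AP-1 letters TGANTCA in Gzmb (chr14:56262335-56262584, minus strand) and the E-box letters CACGTG, bound by MYC, USF and other helix-loop-helix factors, in Apex1 (chr14:50924699-50924948, plus strand) and Bnip3 (chr7:138909507-138909756, minus strand). Both motifs read the same on either strand.
Gzmb: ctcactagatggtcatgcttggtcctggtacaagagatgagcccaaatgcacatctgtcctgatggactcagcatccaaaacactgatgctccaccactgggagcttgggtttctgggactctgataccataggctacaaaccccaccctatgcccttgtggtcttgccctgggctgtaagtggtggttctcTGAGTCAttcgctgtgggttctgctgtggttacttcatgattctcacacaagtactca
Apex1: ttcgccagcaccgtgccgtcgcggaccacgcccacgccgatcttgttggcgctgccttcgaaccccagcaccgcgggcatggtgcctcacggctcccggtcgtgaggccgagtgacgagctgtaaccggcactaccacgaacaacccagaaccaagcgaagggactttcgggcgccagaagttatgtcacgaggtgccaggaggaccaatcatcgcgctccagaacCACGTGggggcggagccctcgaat
Bnip3: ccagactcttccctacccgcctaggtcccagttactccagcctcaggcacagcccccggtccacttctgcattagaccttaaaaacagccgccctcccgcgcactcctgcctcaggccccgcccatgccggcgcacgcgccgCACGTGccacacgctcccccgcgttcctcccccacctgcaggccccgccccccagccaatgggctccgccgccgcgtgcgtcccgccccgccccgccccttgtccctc
The E-box occurred in 8.37% of the windows of this length over 9677 tested genes with a RefSeq entry, in 14.4% of the windows of 111 matched genes with a lower response (16 genes), and in 3.64% of those of 55 matched genes with a higher one (2 genes). For the AP-1 letters the shares were 4.2%, 4.5% and 3.64%. The letters TGACGTCA of the cyclic AMP response element, also the same on either strand, occurred in 2.79% of all windows, in 8.11% of those with a lower response (9 genes) and in 1.82% of those with a higher one (1 gene). The ACGTG core of hypoxia-response elements, which is part of every E-box here, occurred in 22.2% of all windows, either strand. Its share was close to that in windows with a lower response (25.2%, 28 genes) and with a higher one (23.6%, 13 genes). In the windows of 30 matched genes of the glycolysis and hypoxia list, called or not, it was 46.7%. Of the list of ribosome biogenesis, 1 of 35 matched genes held the E-box. These are matches of letters, a description and not binding sites.

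Besides Bnip3, the genes described next held a higher response in knock-out without any 1 library and were on none of the 23 lists. Bnip3l, the paralog of Bnip3 in mitophagy, read 191, 266 and 216 CPM in the primed wild-type libraries, 200.5, 226 and 243 in the stimulated wild-type ones, 102, 116 and 119.6 in the primed knock-out ones and 254, 263 and 236 in the stimulated knock-out ones. It was low in the primed knock-out libraries alone, rose by 1.16 in knock-out, and had -0.01 in wild type with no call (difference 1.16, SE 0.181, edgeR adjusted p = 0.0108). Mr1 encodes the molecule that presents vitamin B metabolites to MAIT cells. It read 18.7, 20.3 and 15.9 then 18.9, 19.6 and 17.1 CPM in wild type and 10.9, 12.7 and 12.6 then 30.1, 29.4 and 30.2 CPM in knock-out, and the genotypes stood in opposite order before and after the step, a difference of 1.29 (SE 0.193, edgeR adjusted p = 0.00869).

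Glipr2 and Narf fell in wild type and had no call in knock-out. Glipr2, a Golgi-associated protein that restrains autophagy, read 292, 309.5 and 276 then 151, 149 and 152 CPM in wild type and 189.6, 191 and 212 then 205, 179.7 and 194 CPM in knock-out. Every stimulated knock-out library was above every stimulated wild-type one and every primed knock-out library below every primed wild-type one (difference 0.92, SE 0.131, edgeR adjusted p = 0.00758). Narf, a nuclear prelamin A recognition factor, did the same with a difference of 1.39. Tcp11l2 rose in both genotypes, by 1.17 and 2.14, from a lower primed level in knock-out: 51.8, 48.9 and 50.5 then 108, 115 and 118 CPM in wild type and 32.5, 30.3 and 31.7 then 134, 134 and 149 CPM in knock-out.

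Other genes that rose further in knock-out were called less stably. Vsir, the inhibitory receptor VISTA, read 77.9, 76.6 and 63.2 then 108, 110.2 and 106 CPM in wild type and 30.7, 36.9 and 34.9 then 192, 106 and 129 CPM in knock-out, with a difference of 1.48 (SE 0.256, edgeR adjusted p = 0.017) that was lost without primed wild-type replicate 1 or stimulated wild-type replicate 1 or 2. Hbp1, a repressor that slows the cell cycle, and Qpct, glutaminyl cyclase, differed by 0.90 and 1.30, and Abcg1, a sterol exporter and the only member called by edgeR among 30 cholesterol genes, by 1.15. Their calls held in 7, 5 and 2 of the 12 fits without 1 library. By edgeR 1.44% of all tested genes were called, against this 1 of 30 cholesterol genes. In the cholesterol list DESeq2 called 3 members lower and 1 higher, and limma voom 8 lower and 1 higher. With all 18 libraries edgeR called 3 lower and 1 higher. Cd68, a lysosomal glycoprotein on the list of monocyte, macrophage and neutrophil markers, rose by 1.30 in knock-out and had 0.04 in wild type without a call (difference 1.26, SE 0.214, edgeR adjusted p = 0.0164). Its call was lost without stimulated wild-type replicate 2. That list summed to 85.3 to 132 CPM over the primed libraries, 90.2 to 106 in stimulated wild type and 108 to 135 in stimulated knock-out, with 8 of its 12 members read in any library. The dendritic-cell list, mostly Itgax, which NK cells also express, summed to 125 to 143 CPM in primed wild type, 171 to 222 in primed knock-out, 184 to 228 in stimulated wild type and 288 to 404 in stimulated knock-out. The part of such cells in these results was not tested.

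In 4 further lists tied to the enzyme or to the response, no member was called. Acetyl-CoA supply and citrate handling (23 tested, median 0.12), histone acetylation writers, readers and erasers (33, median 0.18), fatty acid synthesis (18, median -0.08) and activation and inhibitory receptors (32, median -0.37) each had 0 calls with edgeR, and 8, 6, 6 and 9 members with an unadjusted p under 0.05. DESeq2 called 3, 1, 1 and 2 of their members and limma voom 5, 3, 5 and 7. Of the receptors, Crtam, a T- and NK-cell adhesion receptor, rose in both genotypes, from 131 ± 31.7 to 812 ± 85.6 CPM in wild type and from 83.5 ± 5.98 to 249 ± 42.7 CPM in knock-out. The IL-2 receptor alpha chain gene Il2ra rose in wild type with no call in knock-out, from 53.8 ± 5.07 to 130.4 ± 47.2 CPM in wild type and from 31 ± 3.10 to 29.7 ± 6.44 CPM in knock-out. Their differences of -1.06 and -1.35 were close to the threshold and not called (edgeR adjusted p = 0.0567 and 0.058). Cell cycle genes had a median of 0.24 and 1 call of 42, where 1.44% of all tested genes were called. The called gene, E2f8, a repressor of the E2F family, fell by 0.80 in wild type and had -0.05 without a call in knock-out. It was called in 2 of the 12 fits without 1 library. In that list 24 members fell and 1 rose in wild type, and 16 fell and 3 rose in knock-out. Falls were called for 9.04% of all tested genes in wild type and 15.4% in knock-out. Proteasome genes had 2 calls of 36 (Psmd1 and Psmd6, both lower), called in 3 and 1 of those fits. Interferon-stimulated genes (33 tested, median -0.30), signalling feedback genes (34, median -0.43) and survival and death genes (29, median 0.08) had 0 calls with edgeR, with 4, 10 and 5 members at an unadjusted p under 0.05. DESeq2 called 0, 4 and 1 of them, and limma voom 2, 6 and 6.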

How the data were processed

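RNA from sorted spleen NK cells was sequenced from RNeasy-extracted RNA and SMARTer libraries, per the labels' protocols. The authors deposited expected counts: 30% of the values above 0 were not whole, and they were rounded to whole numbers here, where whole counts had been planned for. Per the submitters' processing notes the tools include DRAGEN, bcl2fastq and edgeR and the build is mm10; the sources used here do not say how they were used. The authors' tables of genotype comparisons were not used. Of 55774 rows, 168 identifiers were repeated with the same values.

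The 12 primed and stimulated libraries (14772300 to 34367538 reads) were fitted with edgeR 4.0.16 in R 4.3.3 (TMM factors, filterByExpr, quasi-likelihood test, Benjamini-Hochberg threshold 0.05, 14121 genes). The common biological coefficient of variation was 0.26. Fresh libraries were left out because no contrast uses them. Contrasts were the response in each genotype, the genotype difference in each condition and the difference of responses. CPM use TMM-scaled totals. The procedure was tested on simulated data with independent libraries and no genotype gap in primed cells. That test does not bear on pairing of libraries or on libraries of low weight. Alternatives were the replicate block, DESeq2 1.42.0, limma 3.58.1 voom with sample weights, other factors, filters and library sets.

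Genes and lists were chosen with earlier results of these data known. Genes were named by class and list (the 8 largest differences per pattern among genes whose mean log2 CPM was 3 or more, the 3 smallest p per list and a panel); the genes called without any 1 library were added after their values were seen. Some genes are not reported here.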

Additional observations from a re-analysis of the deposited data

Results flagged for a closer look

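For 12 genes the NKG2D step was called in opposite directions in the genotypes, and the difference itself was called by edgeR. The 7 of them with a mean log2 CPM above 3, predicted genes aside, follow. Enpp5, a phosphodiesterase family member, fell by 0.67 on the log2 scale in wild type and rose by 0.53 in knock-out, a difference of 1.19 (SE 0.197, edgeR adjusted p = 0.0147). Its call was lost without stimulated wild-type replicate 2. Zfp395 fell by 0.80 and rose by 1.01, a difference of 1.81 (adjusted p = 0.0155), lost without stimulated knock-out replicate 3 or stimulated wild-type replicate 2. Prdx5, a peroxiredoxin, differed by 0.67 and remained lower in knock-out in both conditions. Auh, an enzyme of leucine breakdown, differed by 1.12, and stimulated knock-out libraries lay above stimulated wild-type ones while primed ones lay below. Nr4a1 rose by 0.69 in wild type and fell by 0.65 in knock-out, a difference of -1.34. Slc44a2, a choline transporter-like protein, differed by 0.75 and Elf1, an ETS factor, by 0.56. The calls of Auh, Prdx5, Nr4a1, Elf1 and Slc44a2 held in 4, 3, 1, 1 and 0 of the 12 fits that leave out 1 library. The other 5 all rose in wild type and fell in knock-out. Gm20743, which overlaps Xcl1, differed by -1.96, Lgmn, the lysosomal protease legumain, by -2.84 and Crybg2 by -2.17. Parm1 and Tox2 were at 0 in all 3 primed wild-type libraries and are given no fold. Their calls held in 12, 10, 2, 10 and 2 of those fits, in the order named.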

How the results depend on the processing

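The 203 called differences of response kept their direction wherever an alternative measured them. They were selected by this contrast in the same libraries, so the kept direction is a description and no independent check. Of the 43 that held without any 1 library, 42 were called in every other alternative but the replicate block, and Tnfrsf23 lay below the level filter of one of them and was called in the rest. The count of calls was 528 with all 18 libraries in the fit, 709 with DESeq2, 1758 with limma voom, 522 without a filter on low counts (266 higher, 51% against 35.5%) and 57 to 252 without 1 library. Of 2 alternatives chosen after seeing the data, the sex pattern as a covariate gave 136 calls and leaving out primed knock-out replicate 1 with primed wild-type replicate 3 gave 115, of which 90 were among the 203. The wild-type response had 967 calls at an absolute log2 value of at least 1, 4998 with voom and 1384 to 3078 without 1 library, and the knock-out response 1994 at that size and 3461 to 4490. The primed genotype difference had 679 at that size, 3953 with voom and 791 to 1924 without 1 library. The stimulated one had 626, 5982 and 973 to 2709, and 3180 with both named libraries left out. With the replicate block there were 0 calls for the difference (1548 at an unadjusted p under 0.05, all 203 among them) and 1326 for the wild-type response. Same-numbered libraries of a genotype correlated by 0.221, -0.0254 and -0.368 in wild type and by -0.333, 0.238 and -0.236 in knock-out, which does not show pairing. The female-pattern library did keep its number across conditions, fresh cells included (wild-type replicate 1, knock-out replicate 2). That numbers follow the animal therefore remains possible, and the fit with the block may be the apt one. The cause of these changes was not tested. Gene values under alternatives were counted for a set of named genes that includes the 43. Of those values, 1459 stayed on their side of the threshold, 470 fell short of it and 21 newly passed it. Among all 203 genes, 55 to 172 were still called when 1 library was left out. The 3 libraries in each group limit the precision, as does depth for genes of few reads.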

Other observations

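The fresh libraries, which enter no comparison here, give the levels of the same genes before culture (mean ± SD, 3 libraries, CPM scaled over all 18). Ifng was at 560.2 ± 77.5 CPM in fresh wild type and 585 ± 32.5 in fresh knock-out, above every cultured group, and Ccl3 at 943 ± 209 and 828 ± 147. Bnip3 was at 26.5 ± 3.81 and 23.7 ± 1.48, near its level in primed knock-out and in both stimulated groups, whereas primed wild type was at 171 ± 69.0. Khdc1b was at 12.1 ± 0.299 and 15.4 ± 1.64, against 45.8 ± 11.8 in primed knock-out. Ing3 was at 104 ± 4.01 and 104 ± 7.43, between primed wild type (72.9 ± 3.90) and primed knock-out (178 ± 8.61). Mettl1 was at 5.85 ± 1.36 and 7.82 ± 0.341, and its stimulated knock-out level, 8.88 ± 1.55, was the cultured level nearest to these. Mr1 was at 22.1 ± 1.48 and 22.1 ± 1.95. Fos was at 728 ± 30.1 and 1403 ± 128, higher in fresh knock-out as it was in primed knock-out, with no test made here.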
